A study of Mus musculus with 95 samples.

Results

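The interferon-inducible GTPases described here are 8 mouse genes, Igtp, Irgm1, Irgm2, Iigp1, Ifi47, Gbp2, Gbp3 and Gbp7. They were taken from the immunity-related GTPase (IRG) and guanylate-binding protein (GBP) families by gene symbol, out of 55471 features in a table of raw counts, and all 8 matched 1 feature each. Another 21 genes of these families are described beside them. RNA came from nucleus accumbens of male and female mice that all carry the Aldh1l1-EGFP/Rpl10a transgene (line JD130Htz, mixed B6;FVB background), which places a tagged ribosomal protein in cells using the astrocyte promoter of Aldh1l1. Pulling down the tag gave RNA on astrocyte ribosomes (IP libraries), and tissue lysate set aside before it gave bulk RNA (Input libraries). Dependent mice went through 5 rounds of chronic intermittent ethanol exposure within a drinking protocol (CIE-2BC), non-dependent mice drank without that exposure (2BC), and naive mice were never given ethanol. The ages of the mice are not given in the sources used here. There are 18 dependent, 13 non-dependent and 15 naive IP libraries, 18, 15 and 16 Input libraries, and 46 of 49 mice have both. Libraries carry a batch letter, which is C, G, I, J, K or L.

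IP libraries held 14314236 to 27146790 counts and Input libraries 12803108 to 23948193. All 12 astrocyte markers were higher in IP than in Input (median log2 fold change 3.11), and 15 of 16 microglia markers (median -1.03) and 12 of 12 neuron markers (median -1.30) were lower, over the 46 mice with both libraries. Levels are given as CPM, a gene's counts per 1000000 counts of its library. Calls are at a Benjamini-Hochberg adjusted p at or under 0.05 over all tested genes in the quasi-likelihood test of edgeR, fitted to batches I to L with a term for batch. Batch I has no naive mice and batch L no non-dependent mice, while C and G hold 1 dependent female each. In tissue samples such as these, a difference in level cannot be told apart from a difference in the number of cells that use the gene.

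Interferons bind receptors at the cell surface, and Janus kinases then activate STAT transcription factors. Activated STAT factors bind a DNA element called GAS, and a complex that contains IRF9 binds another called ISRE, which IRF1 also recognises. Among the strongest targets of interferon gamma in mice are the IRG and GBP genes. Their proteins gather on the membranes of vacuoles that hold parasites or bacteria. Irgm1, Irgm2 and Igtp (also called Irgm3) are regulators that sit on the cell's own membranes and hold effector IRG proteins inactive, Iigp1 and Ifi47 are effectors, and GBPs such as Gbp2 are large GTPases that assemble on pathogen membranes. In brain, Gbp2 and Iigp1 are widely used as markers of astrocytes that react to inflammatory signals.

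Promoter sequences are shown because these elements are what the family is known for. RefSeq (build GRCm38.p6) gave promoters of 7 of the 8 members, each from 250 bases before to 50 bases after the start. The ISRE core searched was GAAANNGAAA and the GAS element was TTCNNNGAA, each on both strands, and a match is a description of letters only. An ISRE core was present in 6 of the 7 matched members and a GAS element in 3, where 3.44% and 8.30% of all 32851 promoters of this length hold them. Of the 10 other family genes with a promoter, 7 had an ISRE core and 5 a GAS element. Capitals mark the matches. The Irgm1 stretch and 22 bases of the Gbp2 stretch lie in annotated exons, and the others outside them. The strand is that of the gene, and neighbouring matches that overlap run together.
Igtp, chr11:58199486-58199555, plus strand: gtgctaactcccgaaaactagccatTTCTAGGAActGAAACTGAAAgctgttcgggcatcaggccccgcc
Irgm2, chr11:58214877-58214947, plus strand: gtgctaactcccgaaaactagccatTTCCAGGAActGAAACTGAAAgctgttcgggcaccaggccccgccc
Gbp7, chr3:142530206-142530317, plus strand: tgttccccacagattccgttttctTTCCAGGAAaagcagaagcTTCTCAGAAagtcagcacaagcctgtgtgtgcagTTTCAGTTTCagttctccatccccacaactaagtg
Gbp3, chr3:142559974-142560025, plus strand: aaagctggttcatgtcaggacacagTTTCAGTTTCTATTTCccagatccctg
Gbp2, chr3:142620594-142620623, plus strand: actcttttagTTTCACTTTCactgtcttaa
Irgm1, chr11:48871428-48871457, minus strand: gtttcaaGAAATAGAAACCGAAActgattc

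The stretches of Igtp and Irgm2 were the same in 68 of 70 bases, while the whole promoter windows, aligned without gaps, were the same in 184 of 270 (68.1%). In both, the GAS match lies 2 bases before the ISRE core. Gbp7 had a pair of GAS matches upstream of its ISRE core, while Gbp2, Gbp3 and Irgm1 had ISRE cores and no GAS match in the window. Ifi47 had neither in its window, and Gbp3 has another start whose promoter held neither.

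The members lie on 3 chromosomes. Gbp7 (ENSMUSG00000040253, 142530342 to 142550149), Gbp3 (ENSMUSG00000028268, 142560026 to 142573209) and Gbp2 (ENSMUSG00000028270, 142620602 to 142638008) follow each other on the plus strand of chromosome 3. Irgm1 (ENSMUSG00000046879, 48861968 to 48871683, minus strand), Ifi47 (ENSMUSG00000078920, 49076587 to 49096974), Igtp (ENSMUSG00000078853, 58199556 to 58207591) and Irgm2 (ENSMUSG00000069874, 58199618 to 58222782) are on chromosome 11, and Iigp1 (ENSMUSG00000054072) is on chromosome 18. Coordinates are those of the GENCODE annotation of GRCm38, and all 8 genes are protein-coding. The annotated exons of Igtp and Irgm2 share 162 bases, which is 8.01% of the exon length of Igtp and 4.39% of that of Irgm2. Reads in that stretch cannot be assigned with certainty, and the same holds for 217 exon bases of Ifi47 shared with Olfr56 and Gm12188 and 637 of Gbp7 shared with Gm43802.

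All 8 GTPases were higher in the astrocyte IP of dependent than of non-dependent mice, and in this fraction 1.1% of the 19979 tested genes were called higher. The members were chosen with earlier results of these data known, so the count of 8 beside that share is a description and no test. Their log2 fold changes ran from 0.79 to 3.73 with a median of 2.59, against 0.00 over all genes tested. Dependent and control values overlapped for every member, with some dependent mice at control levels and others far above them. Without mouse J05, 5 of the 8 passed, and with limma voom in place of edgeR 4 did. The share of all genes called in those fits is not given here.

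**Figure D1:**
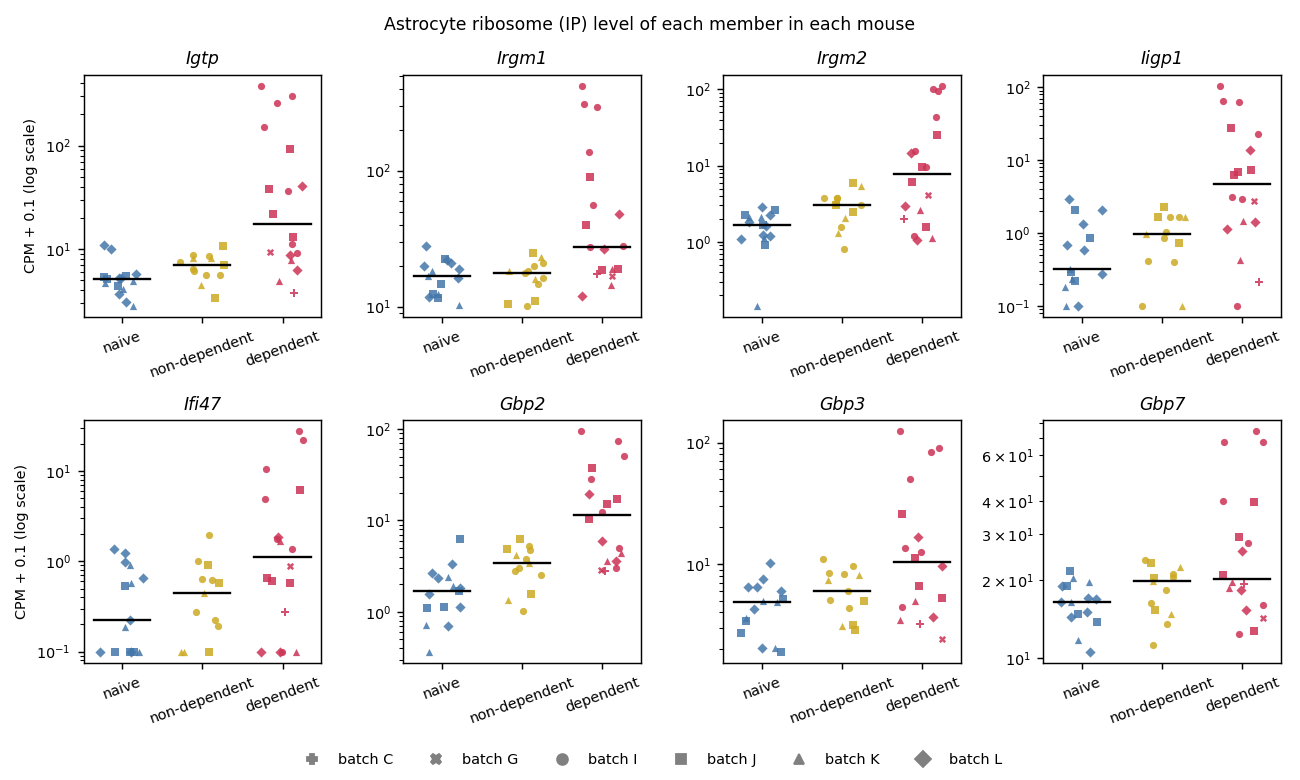
Level of each member in every IP library, as CPM plus 0.1 on a log axis. Points are mice, shapes are batches and black lines are group medians. Dependent mice run from control levels to far above every other mouse, with Igtp from 3.64 to 379 CPM.

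Among the regulators, Igtp had 3.64 CPM in the lowest dependent IP library, a median of 17.4 and 379 in the highest (n = 18). Non-dependent IP libraries ran from 3.30 to 10.7 CPM with a median of 6.99 (n = 13), and naive ones from 2.74 to 10.8 with a median of 5.03 (n = 15). The groups overlapped, since 11 of 18 dependent libraries were above every other library and 7 were within the range of the controls. The log2 fold change against non-dependent mice was 3.14 ± 0.57 (SE, adjusted p = 0.00184, edgeR quasi-likelihood test). Irgm1, which also acts in autophagy, had 11.9, 27.4 and 422 CPM as its lowest, median and highest dependent value, against 10.04, 17.4 and 24.8 in non-dependent and 10.1, 16.6 and 27.9 in naive mice. The groups overlapped, with 11 of 18 dependent libraries above every non-dependent one and 8 above every naive one, and the log2 fold change was 2.10 ± 0.44 (adjusted p = 0.00550). Irgm2 ran from 0.961 through a median of 7.72 to 112 CPM in dependent mice, from 0.704 through 2.99 to 5.74 in non-dependent mice and from 0.0447 through 1.57 to 2.78 in naive mice. For Irgm2, 10 of 18 dependent libraries exceeded every non-dependent one, with a log2 fold change of 2.58 ± 0.62 (adjusted p = 0.0204).

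The effectors were near the limit of detection in control astrocytes. Iigp1 was at 0 counts in 2 non-dependent, 2 naive and 1 dependent IP library. Its highest values were 2.18 CPM in non-dependent, 2.87 in naive and 106 in dependent mice, and its medians 0.860, 0.223 and 4.57. Most dependent libraries, 12 of 18, were above every non-dependent one, and the log2 fold change of 3.73 ± 0.85 was the largest of the 8 members (adjusted p = 0.0122). Ifi47 was at 0 counts in 4 dependent, 3 non-dependent and 6 naive libraries, with highest values of 27.5, 1.88 and 1.29 CPM and medians of 1.02, 0.344 and 0.123. Only 5 of 18 dependent libraries exceeded every non-dependent one. The log2 fold change of Ifi47 was 3.14 ± 0.86 with an adjusted p of 0.0478, which rose to 0.136 without mouse J05. With so few counts in controls, the size of these fold changes is poorly fixed.

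Of the guanylate-binding proteins, Gbp2 ran from 2.71 through a median of 11.3 to 94.1 CPM in dependent mice, from 0.912 through 3.32 to 6.17 in non-dependent mice and from 0.268 through 1.61 to 6.15 in naive mice. Dependent mice were above every other library in 10 of 18 cases, and the log2 fold change against non-dependent mice was 2.60 ± 0.49 (adjusted p = 0.00199). Gbp3 ran from 2.34 through 10.4 to 123 CPM in dependent, from 2.79 through 5.93 to 10.9 in non-dependent and from 1.81 through 4.79 to 10.2 in naive mice. The lowest dependent library was below every non-dependent one, while 9 of 18 dependent libraries were above every other, with a log2 fold change of 1.89 ± 0.44 (adjusted p = 0.0138). Gbp7 had the smallest change, from 12.3 through 20.1 to 74.0 CPM in dependent, from 11.2 through 19.7 to 23.7 in non-dependent and from 10.5 through 16.4 to 21.5 in naive mice. The medians of dependent and non-dependent mice were close, 8 of 18 dependent libraries were above every other, and the log2 fold change was 0.79 ± 0.21 (adjusted p = 0.0379, and 0.0844 without mouse I11).

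High values fell in the same mice for most members. Of 18 dependent mice, 5 (I02, I05, I11, I13 and J05) exceeded every non-dependent and naive IP library for all 8 members, 3 more (I07, J09 and L25) did so for 7 members, and 6 did so for none. By batch, the 8 mice with 7 or 8 members above were 5 of 7 in batch I, 2 of 4 in J, 1 of 3 in L and 0 of 2 in K, and neither the mouse of C nor that of G was among them. How many of all genes exceeded every control in these libraries is not given here, so these counts do not set the members apart from other genes. Mouse I11 had the highest level of all 8 genes. The SD of log2 CPM of Igtp was 2.12 in dependent, 0.43 in non-dependent and 0.50 in naive IP libraries, and that of Gbp7 was 0.81, 0.36 and 0.31. Across the 16 dependent IP libraries of batches I to L, with batch means subtracted, Pearson's r between members ran from 0.71 (Ifi47 and Gbp3) to 0.96 (Igtp and Irgm1), with a median of 0.86 over 28 pairs. Over the 28 naive and non-dependent libraries the median was 0.40, with a range of 0.10 to 0.75. These correlations describe libraries that share their batches and depth.

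Against naive mice, 5 of the 8 members were called higher in dependent astrocyte IP, where 2.81% of tested genes were. The 5 were Igtp (log2 fold change 2.64 ± 0.59, adjusted p = 0.00493), Irgm2 (2.54 ± 0.64, adjusted p = 0.0152), Iigp1 (3.67 ± 0.87, adjusted p = 0.00901), Gbp2 (2.85 ± 0.50, adjusted p = 0.000348) and Gbp3 (1.53 ± 0.46, adjusted p = 0.0458). Irgm1 (1.40 ± 0.45, adjusted p = 0.0695), Ifi47 (1.88 ± 0.96, adjusted p = 0.323) and Gbp7 (0.56 ± 0.22, adjusted p = 0.166) did not pass. The median over the members was 2.21, against 0.00 over all genes. This comparison shares the dependent libraries with the preceding one, so it is no separate evidence. Without mouse L25, 2 of the 8 members passed, and with limma voom 0 did, and the share of all genes called in those fits is not given here.

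Between non-dependent and naive astrocyte IP, 0 of 8 members were called higher and 0 lower, where 0.24% of all tested genes were called higher. No member reached an unadjusted p under 0.05 in edgeR. Log2 fold changes ran from -1.26 (Ifi47) to 0.25 (Gbp2), and that of Igtp was -0.50 with a 95% interval from -1.72 to 0.71, an interval that holds changes in both directions. In the fit, 7 of 8 values were below 0. Within batches J and K, which alone hold both groups, 7 of 8 members were instead higher in non-dependent mice in each (medians 0.57 and 0.58 on the log2 scale), so the direction depends on which batches are used.

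**Figure D2:**
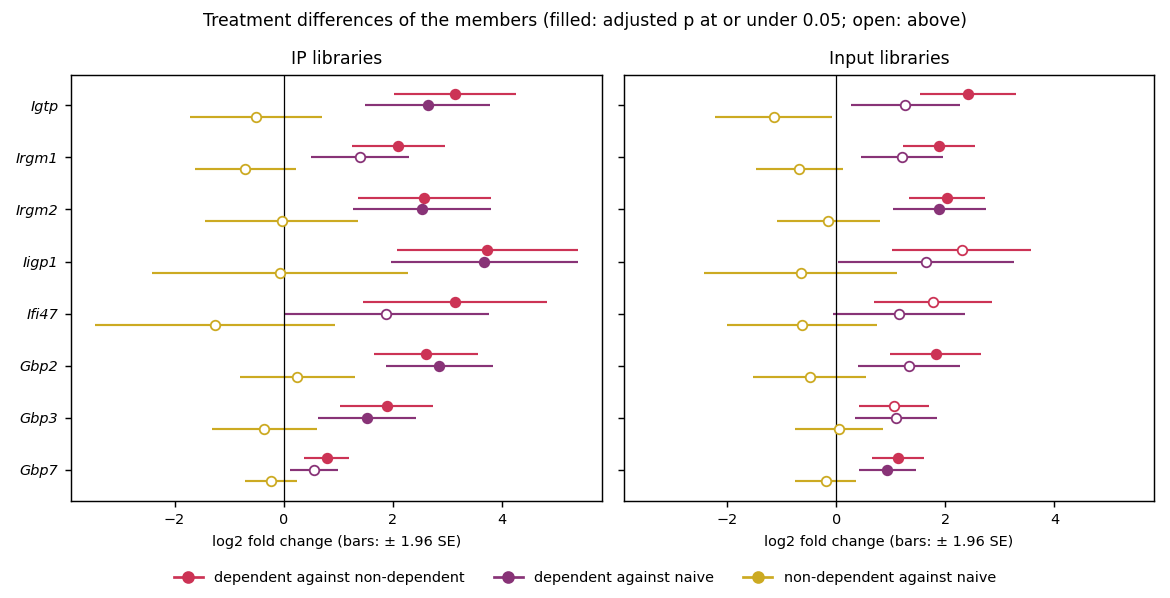
Log2 fold changes of the 8 members for the 3 treatment comparisons, in IP (left) and Input (right). Bars are 95% intervals, filled points have an adjusted p at or under 0.05. Both comparisons with dependent mice lie above 0 for all members, while non-dependent against naive lies around or below 0.

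The difference between treatments was not alike in all batches. In batch I, with 7 dependent and 7 non-dependent IP libraries, all 8 members were higher in dependent mice, by a median of 2.80 on the log2 scale (1.04 to 3.94). In J, with 4 and 3 libraries, all 8 were higher by a median of 1.58. In K, with 2 and 3 libraries, 4 of 8 were higher and the median was 0.06, with Igtp at -0.01. The K mice that were dependent had 4.88 and 7.74 CPM of Igtp, inside the range of the K non-dependent mice (4.46 to 8.17). Against naive mice, all 8 members were higher in dependent mice in J (median 2.30) and in K (median 0.48), and 7 of 8 in L (median 0.83, with Ifi47 at -0.69). In a fit of J and K alone, 0 of 8 members passed against non-dependent mice, although all 8 values were above 0 and Igtp was at 1.68 ± 0.57. No gene of the 19895 tested passed in that fit. Against naive mice, Igtp, Iigp1 and Gbp2 passed in J and K alone. The share of all genes called in that comparison is not given here, so this count does not set the members apart.

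**Figure D3:**
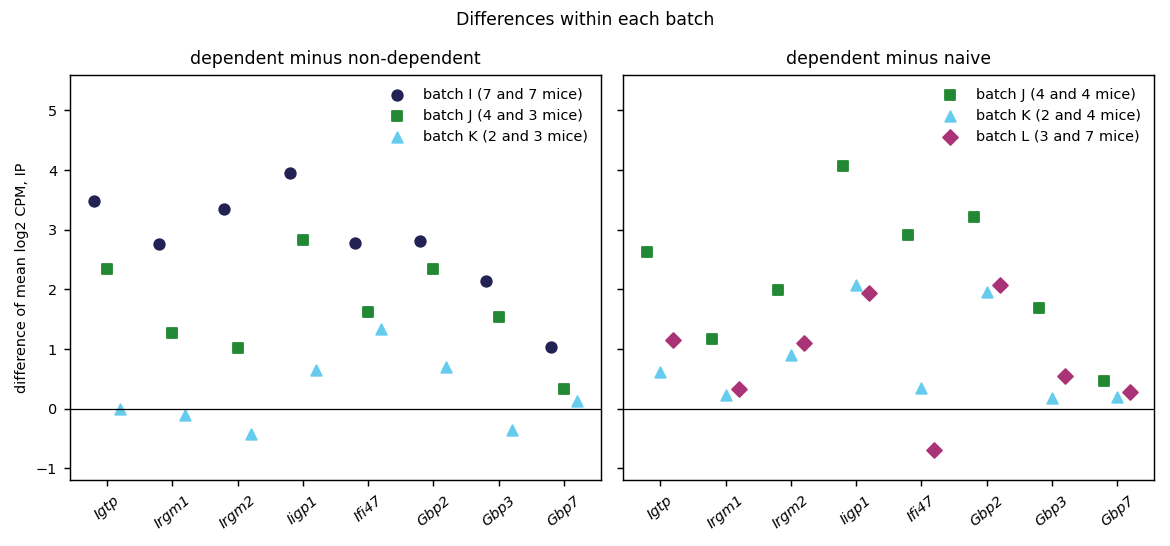
Difference of mean log2 CPM between dependent and non-dependent (left) or naive (right) IP libraries within each batch, for each member. The values of batch I lie highest on the left, with Iigp1 at 3.94, and those of batch K run from -0.42 to 1.34.

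Dependent females had 3.64, 25.3 and 303 CPM of Igtp as lowest, median and highest IP value (n = 10), and dependent males 4.88, 16.4 and 379 (n = 8). The ranges overlapped for every member. Whether the dependence difference itself differed between females and males was tested for each member, and 0 of 8 were called in either comparison, as was 0% of all genes. The female minus male difference of Igtp was 0.67 ± 0.98 against non-dependent mice, with a 95% interval from -1.25 to 2.59. None of the 8 had an unadjusted p under 0.05, and the intervals are wide.

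All 8 members were called higher in astrocyte IP than in bulk tissue of the same mice, where 33.6% of 21743 genes were called higher in IP. For Irgm1 and Gbp7 the IP level exceeded the Input level in 46 of 46 mice. Irgm1 averaged 45.0 CPM in IP (SD 83.7) and 13.2 in Input (SD 22.6), with a fitted log2 fold change of 1.84 ± 0.06 (adjusted p = 2.17e-34), and Gbp7 averaged 22.2 CPM (SD 14.1) and 7.23 (SD 6.25), with 1.83 ± 0.08 (adjusted p = 9.06e-30). Igtp (1.57 ± 0.11, 42 of 46 mice), Irgm2 (1.57 ± 0.14, 35 of 46), Gbp2 (1.501 ± 0.13, 38 of 46) and Gbp3 (1.43 ± 0.12, 39 of 46) followed. The effectors had smaller shifts, Iigp1 at 1.26 ± 0.18 with 25 of 46 mice higher and Ifi47 at 0.81 ± 0.21 with 21 of 46. For both, the mean was higher in IP than in Input in dependent mice alone. Iigp1 averaged 18.3 CPM in IP and 6.07 in Input of dependent mice, 0.935 and 1.19 in non-dependent mice and 0.723 and 0.836 in naive mice. For Ifi47 the means were 4.42 and 1.98, 0.452 and 0.655, and 0.387 and 0.531 CPM. The other 6 members had a higher mean in IP in each treatment. The astrocyte markers had a median of 3.11 and all tested genes -0.16 in the same fit, so the members lay between them.

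In bulk tissue, 5 of the 8 members were called higher in dependent than in non-dependent mice, where 0.31% of 19691 genes were. Igtp ran from 1.45 through 6.22 to 101 CPM in dependent Input, from 0.783 through 2.76 to 9.12 in non-dependent and from 1.29 through 2.73 to 7.31 in naive Input. The groups overlapped, with 7 of 18 dependent libraries above every non-dependent one. The log2 fold changes of the 5 were 2.41 ± 0.45 for Igtp (adjusted p = 0.00399), 1.88 ± 0.34 for Irgm1 (adjusted p = 0.00237), 2.04 ± 0.36 for Irgm2 (adjusted p = 0.00134), 1.82 ± 0.43 for Gbp2 (adjusted p = 0.0345) and 1.13 ± 0.24 for Gbp7 (adjusted p = 0.0132). Iigp1 (2.30 ± 0.65, adjusted p = 0.154), Ifi47 (1.77 ± 0.55, adjusted p = 0.234) and Gbp3 (1.05 ± 0.33, adjusted p = 0.240) did not pass. Without mice I02 and J05, 3 of the 8 passed. Against naive Input, Irgm2 (1.89 ± 0.43, adjusted p = 0.00936) and Gbp7 (0.93 ± 0.27, adjusted p = 0.0485) passed, 2 of 8, where 1.42% of genes did. Only 1 passed without the non-dependent mouse K15, whose IP and Input deviated from their groups in opposite directions, and 7 passed with no batch term. Between non-dependent and naive Input 0 of 8 passed, where 0.0609% of genes were called higher. Igtp alone had an unadjusted p under 0.05 there in edgeR (log2 fold change -1.15 ± 0.55, adjusted p = 0.669).

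IP and Input levels of the dependent mice were correlated, but not every mouse high in IP was high in Input. Of the 8 mice with 7 or 8 members above every control in IP, I02, I05 and I11 had 8 above in Input, I07 had 7, I13 had 6, J05 had 5, L25 had 4 and J09 had 1. Over the 18 dependent mice, log2 CPM in IP and in Input of the same mouse had a Pearson's r of 0.974 for Igtp (Spearman's rho 0.965), 0.962 for Irgm1 (0.868), 0.921 for Irgm2 (0.858) and 0.906 for Gbp3 (0.839). The others were 0.799 for Gbp7 (rho 0.678), 0.775 for Gbp2 (0.738), 0.744 for Iigp1 (0.808) and 0.741 for Ifi47 (0.737). In a 2-sided permutation test of these 8 relations, the Benjamini-Hochberg adjusted p of r was at most 0.00058 and that of rho at most 0.0027. Batch means were not subtracted here, so differences between batches are part of these values. Both libraries of a mouse came from the same lysate, so a positive relation was likely in advance and the test adds little. Raw p-values of r ran from 1e-05, the smallest that 100000 permutations can give, to 0.00058, and those of rho from 1e-05 to 0.0027. Without the 2 mice farthest from the median Input level, r ran from 0.620 (Ifi47) to 0.960 (Igtp). Within batch I alone, over 7 dependent mice, it ran from 0.839 (Gbp2) to 0.995 (Irgm1), and the other batches hold too few dependent mice.

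**Figure D4:**
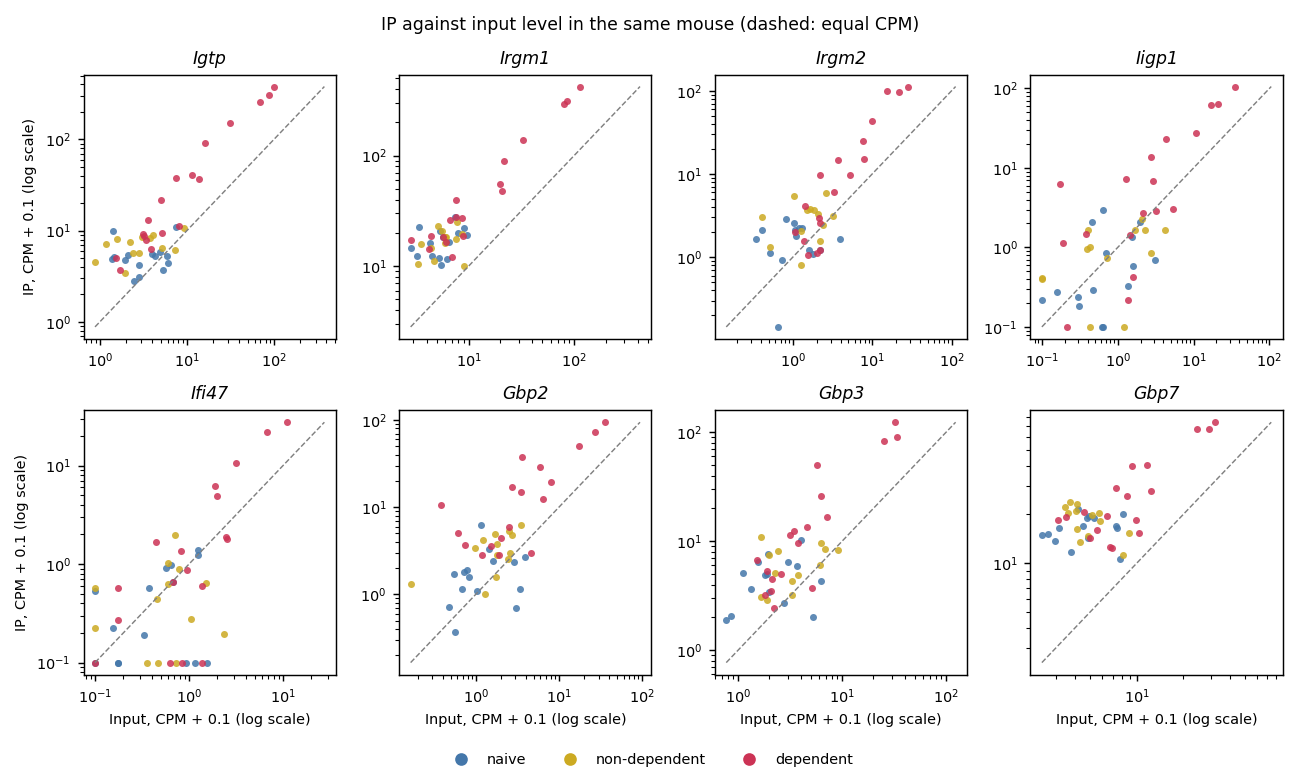
IP level against Input level in the same mouse for each member, as CPM plus 0.1 on log axes, for 46 mice. The dashed line marks equal levels. Dependent mice extend along a rising band, and for Irgm1 and Gbp7 all 46 points lie above the line.

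Whether dependence changed the IP more than the Input was tested with the mouse as a block. Against non-dependent mice, 0 of 8 members were called, where 0.0923% of 21659 genes were called in either direction, although 7 of 8, all but Gbp7, had an unadjusted p under 0.05 with a larger change in IP. Gbp3 came nearest, with a difference of 1.19 ± 0.27 (adjusted p = 0.0591). Against naive mice, Igtp was called, with a log2 change larger by 1.25 ± 0.30 in IP than in Input (adjusted p = 0.0412), where 0.356% of genes were called. Gbp2 did not pass (1.58 ± 0.40, adjusted p = 0.0592). The call for Igtp was lost without mouse J05 (adjusted p = 0.120), without L25 (0.182), without L26 (0.0635) and in the fit without the mouse block (0.966). Gbp7 was the only member below 0 in both comparisons (-0.37 ± 0.21 and -0.38 ± 0.23).

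Levels of different members can be compared per kilobase of exon. In naive IP, Irgm1 (2.93 ± 0.87 CPM per kb, SD), Gbp7 (2.91 ± 0.56) and Igtp (2.63 ± 1.11) led, with differences smaller than their SD. Gbp3 (1.43 ± 0.71), Gbp2 (0.734 ± 0.574) and Irgm2 (0.424 ± 0.196) followed, and Ifi47 (0.157 ± 0.184) and Iigp1 (0.124 ± 0.153) were lowest. Only the steps from Igtp to Gbp3 and from Irgm2 to Ifi47 exceeded the larger SD of the pair. In non-dependent IP the same 3 genes led, with Igtp at 3.42 ± 0.98, Gbp7 at 3.28 ± 0.70 and Irgm1 at 2.92 ± 0.80 CPM per kb. In dependent IP, Igtp (38.3 ± 57.7) and Irgm1 (15.3 ± 21.2) came before Gbp2 (8.59 ± 10.5), Gbp3 (7.98 ± 11.1), Irgm2 (6.74 ± 10.2), Gbp7 (5.32 ± 3.58), Iigp1 (3.14 ± 5.06) and Ifi47 (1.79 ± 3.21). No step there exceeded the SD, so this order is not fixed. By mean Gbp7 was in the sixth place there, and by median (3.58 CPM per kb) in the fourth, after Igtp (8.62), Irgm1 (4.72) and Gbp2 (4.51).

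The rest of the family held genes that were at or near 0 in most controls. Of 21 other IRG and GBP genes, 14 had enough counts to be tested in IP. In the comparison with non-dependent mice, where 1.1% of all tested genes were higher, 7 of the 14 were higher in dependent mice and 0 lower. Some passed the filter on low counts only through the dependent mice and had to differ, so the count supports nothing and no p is given for the 3 nearest to 0 in controls among those described. Gm12250, annotated as a processed pseudogene beside Igtp, reached 15.9 CPM in dependent mice, with 10 of 13 non-dependent libraries at 0 and a highest of 0.483. F830016B08Rik reached 8.31 CPM, with 12 of 13 non-dependent libraries at 0. Gbp6 had a median of 1.48 and a highest value of 33.2 CPM in dependent mice against 0.513 and 1.88 in non-dependent mice (log2 fold change 2.96 ± 0.62, adjusted p = 0.00524). Tgtp2, an effector of the IRG family, reached 44.5 CPM in dependent and 0.676 in non-dependent mice, 6 of which were at 0. Gm4951, Gbp4 and Gbp8 were the other 3. Tgtp1 and Tgtp2 are near-identical copies, and the annotated spans of Gbp4, Gbp8 and Gbp9 overlap, so their counts are uncertain. Irgq and Gbp5, named after their values were seen, did not pass. Irgq had medians of 17.4 CPM in dependent and 19.6 in non-dependent mice (0.00 ± 0.09), and Gbp5 had 4.15 and 5.23 CPM (0.15 ± 0.29, adjusted p = 0.921).

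Within 200 kb of a member lay 60 genes outside both families, of which 28 were tested and 1, Psme2b (0.48 ± 0.12, adjusted p = 0.0280), was higher, where 1.1% of all tested genes were. The median of the 28 was -0.01 on the log2 scale. Among those not called, the highest was BC023105, a processed pseudogene near Iigp1 (2.19 ± 1.06, adjusted p = 0.399), and both genes were named after their values were seen.

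Upstream of the members, the interferon ligands were at or near 0. Ifnb1, Ifna2, Ifna4 and Ifnl2 had 0 counts in all 95 libraries, and Ifng, the main inducer of this family, had 0 counts in all 18 dependent IP libraries and in 17 of 18 dependent Input libraries. At these depths such counts do not show absence. Receptors were present, with Ifngr1 at a median of 32.8 CPM in dependent and 27.9 in non-dependent IP (0.04 ± 0.11) and Ifngr2 at 43.2 and 47.9 (0.05 ± 0.10). Of the 4 receptor genes only Ifnar2, a chain of the type I receptor, was higher (medians 23.3 and 17.8 CPM, 0.44 ± 0.09, adjusted p = 0.00447). Among all tested genes, 1.1% were higher in this comparison.

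Interferon regulatory factors are transcription factors of this pathway. Irf1, Irf7, Irf8 and Irf9 were higher in dependent than in non-dependent IP, where 1.1% of all tested genes were. On the list of signalling and transcription factors, 8 of the 13 genes were not called. Irf1 ran from 2.77 through 10.5 to 62.2 CPM in dependent and from 3.13 through 4.90 to 8.31 in non-dependent mice (1.57 ± 0.29, adjusted p = 0.00173). For Irf9, the DNA-binding part of the factor that recognises ISRE, the log2 fold change was 1.13 ± 0.24 (adjusted p = 0.00564). The log2 fold change was 1.76 ± 0.42 for Irf7 (adjusted p = 0.0160) and 1.21 ± 0.30 for Irf8 (adjusted p = 0.0210), which was named after its value was seen. Against naive mice, Irf1, Irf7, Irf8 and Irf9 also passed, where 2.81% of all tested genes were called higher. Irf1 and Irf9 were higher in IP than in Input (1.42 ± 0.09 and 0.93 ± 0.07), while Irf7 and Irf8 were lower (-0.27 ± 0.11 and -0.71 ± 0.10). Of all 21743 tested genes 9777 were lower, among them 15 of 16 microglia and 12 of 12 neuron markers. Which cells the Irf7 and Irf8 RNA came from was not tested.

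Genes that oppose the pathway or act with its products were rarely called. Of 6 negative regulators 0 passed, the nearest being Socs1, an inhibitor of Janus kinases (1.14 ± 0.33, adjusted p = 0.0641). Among the 13 genes of ATG8 conjugation, the autophagy machinery that directs these GTPases to membranes, 0 passed, with a median of -0.01 and Atg5 at 0.12 ± 0.07. All 5 enzymes of prenylation, the lipid attachment that anchors some GBPs, were also not called (median -0.03). Of 7 tested inflammasome genes, which GBPs can engage, Casp1 alone was higher (1.56 ± 0.42, adjusted p = 0.0399), with medians of 4.84 CPM in dependent and 2.75 in non-dependent IP. The share of all tested genes called higher there was 1.1%.

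The 10 genes outside the families whose pattern was most like the mean of the members over the 44 IP libraries of batches I to L, batch means subtracted, included several of antigen presentation. Psmb9, a subunit of the immunoproteasome, came first of 14940 genes ranked (Pearson's r 0.94, Spearman's rho 0.90), followed by the class I genes H2-T23 (0.93, 0.83) and H2-K1 (0.93, 0.86), Psmb8 (0.93, 0.86) and H2-D1 (0.92, 0.88). Bst2, an antiviral tether protein (0.92, 0.84), Xaf1 (0.91, 0.83), Lgals3bp (0.91, 0.83), B2m, the light chain of class I molecules (0.91, 0.85), and Tapbp, which loads them (0.90, 0.81), completed the list. The libraries share batches and depth, and no p is given.

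Microglia markers were also high in some of these mice. The summed level of 16 microglia markers ran from 244 through a median of 331 to 926 CPM in dependent IP, from 264 through 309 to 354 in non-dependent IP and from 251 through 308 to 348 in naive IP. Dependent mice I02 (926), J05 (753), I11 (525), I05 (508), L25 (425), J09 (402) and L29 (357) were above every control, and all but L29 are among the 8 mice named above for their GTPases. The other 2 of those 8, I13 (312 CPM) and I07 (336), were within the control range and had 150.9 and 36.7 CPM of Igtp. Of the 16 markers, the complement genes C1qa (log2 fold change 0.75), C1qb (0.69) and C1qc (0.83) were called higher against non-dependent mice and 0 were lower. Of all tested genes, 1.1% were called higher there. Summed astrocyte markers overlapped throughout, from 19797 to 27611 CPM in dependent, 20109 to 26110 in non-dependent and 20187 to 27146 in naive IP. Of the 12 astrocyte markers, 0 were called in dependent against non-dependent IP. Against naive IP 3 of the 12 were called higher and 0 lower, where 2.81% of all tested genes were called higher. T and NK cell markers were at 13.8 to 38.7 CPM in dependent and 22.8 to 46.0 in non-dependent IP, with 15.4 to 39.8 in naive IP. Of the 5 markers of this list tested between IP and Input, 4 were lower in IP and Trac was higher (log2 fold change 2.08 ± 0.13). The sum therefore need not follow the number of such cells. Cd3e, Cd3d, Gzmb and Prf1 had 0 counts in all non-dependent and all naive IP libraries but not in all dependent ones. Klrb1c went the other way, with 0 counts in all dependent IP libraries but not in all of either control group. Ncr1 had 0 counts in all dependent and all non-dependent IP libraries but not in all naive ones. Of the 12 T and NK cell markers 4 could be tested, and 0 were called against non-dependent mice. Nkg7 was called higher against naive mice, where 2.81% of all tested genes were. It was at 0 in all naive IP libraries and passed the filter on low counts only through the other groups, so its call supports nothing. Monocyte and neutrophil markers summed to 0.0459 to 8.28 CPM in dependent, 0.0933 to 2.04 in non-dependent and 0.0462 to 3.23 in naive IP. Of these 10 markers 3 could be tested, and 0 were called against non-dependent mice. Against naive mice 0 were higher and 1 was lower, where 372 of 19979 tested genes were lower. The part of these cells in the members' levels was not tested.

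**Figure D5:**
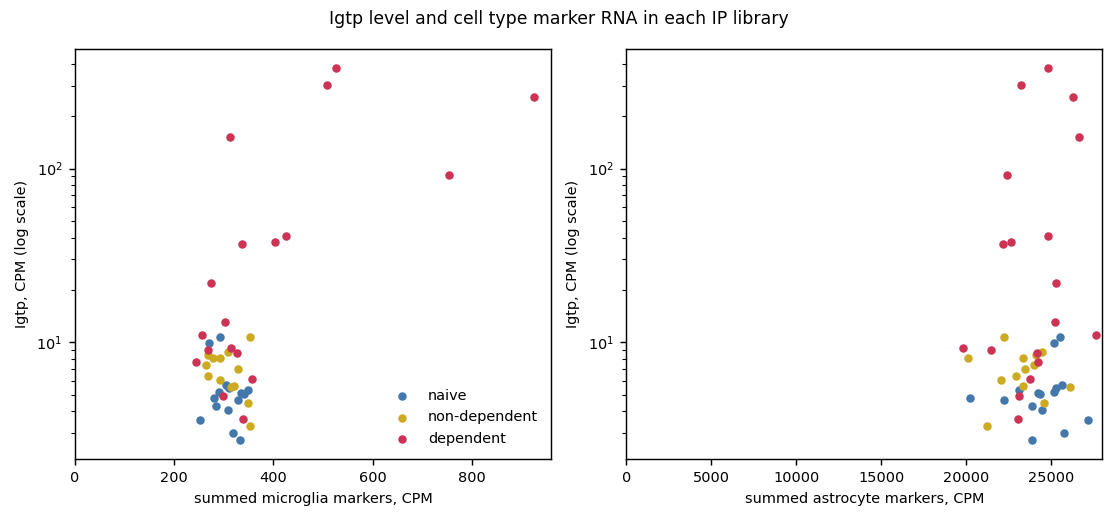
Igtp level (log axis) against the summed CPM of 16 microglia markers (left) and 12 astrocyte markers (right) in each IP library. The 4 dependent libraries with over 500 CPM of microglia markers have high Igtp, while I13 has 150.9 CPM of Igtp at 312 CPM of markers.

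With the mean of the microglia markers as a covariate, 4 of the 8 members passed against non-dependent mice, Igtp (2.44 ± 0.50, adjusted p = 0.00634), Irgm1 (1.502 ± 0.36, adjusted p = 0.0240), Iigp1 (2.97 ± 0.77, adjusted p = 0.0422) and Gbp2 (2.11 ± 0.44, adjusted p = 0.00731). Without mice I02 and J05, 5 of 8 passed, with Igtp at 2.79 ± 0.56. All 8 values stayed above 0 in both fits. The share of all tested genes called in them is not given here, so these counts do not set the members apart from other genes. These fits show how the calls depend on the setting, and the part of microglia in the members' levels was not tested.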

How the data were processed

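The authors deposited a table of raw counts per Ensembl gene for 95 libraries of 49 mice. Trimmomatic 0.39, STAR 2.7.10b, FastQC 0.11.9 and the genome GRCm38 are named in the submitters' processing notes, while the counting program, annotation and strand setting are not given in the sources used here. Symbols were matched for 55144 of 55471 features, and the other 327 held 0.0192% of counts.

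Counts of batches I, J, K and L were fitted with edgeR 4.0.16 in R 4.3.3 (TMM normalization, filterByExpr with a minimum count of 10 and a minimum total of 15, robust quasi-likelihood test). The model had a mean for each treatment and sex plus batch, and a treatment difference is the mean of its female and male values. Comparisons of IP with Input had the mouse as a block. P-values were adjusted over all tested genes. All 8 members passed the filter in both fractions. In simulated data made from the IP libraries, 99% of 2-fold and 100% of 4-fold changes between dependent and non-dependent mice were recovered among 18390 genes. For 2-fold changes in IP minus Input, 61% (against non-dependent) and 70% (against naive) were recovered, and for female minus male 30% and 39%. The simulation had no batch effect, the same set spread for every gene and no changed genes of low count. It therefore does not give the power for members as variable or as low as those here. Labels do not say more of how mice were sampled, so p-values measure the spread between these mice.

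IP and Input libraries are paired by mouse label. Over 6627 genes, their deviations from group means had a median correlation of 0.710 within a mouse and 0.551 between mice of a batch. The group means were by treatment and sex, with batch not subtracted. Within a mouse the correlation was over 0.1 in 45 of 46 mice, the exception being the non-dependent mouse K15 (-0.396). It was also low in the dependent mice L29 (0.182) and I02 (0.280). In 31 of 46 mice the best match was with their own Input, so the pairing is not certain for every mouse. No 2 libraries were identical. Log2 CPM used a prior count of 2.

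Members and lists were chosen with earlier results of these data known. All members are named. Other family and pathway genes are named as up to 4 per list with the smallest p between dependent and non-dependent IP, plus every called gene of lists of 10 or fewer. A result of the signalling list is not reported here. The 10 most alike genes were chosen by Pearson's r with the members' mean. Alternatives used RLE, DESeq2 1.42.0, limma 3.58.1 (voom), no count filter, no batch term, batches J and K, a microglia covariate and each dependent mouse left out. Correlations and figures used Python 3.11.15, scipy 1.17.1 and matplotlib 3.10.9.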

Additional observations from a re-analysis of the deposited data

Results flagged for a closer look

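The difference between dependent and naive mice differed between IP and Input for Igtp by a test of the difference itself. Its log2 change was larger by 1.25 ± 0.30 in IP (SE, edgeR quasi-likelihood test with the mouse as a block, adjusted p = 0.0412), and without the block the same difference was 1.37 ± 0.91 (adjusted p = 0.966).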

How the results depend on the processing

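For dependent against non-dependent IP, 8 members passed, and 4 with limma voom, 0 in batches J and K, 4 with the microglia covariate and 5 without I02 and J05. Leaving out single dependent mice gave 5 (without J05) to 8. For dependent against naive IP, 5 passed, and 0 with limma voom, 8 without a count filter, 8 without a batch term, 3 in batches J and K and 3 with the covariate, and leaving out single mice gave 2 (without L25) to 6. For dependent against non-dependent Input, 5 passed, and 3 without a batch term, 0 in batches J and K and 3 without I02 and J05, with 4 to 5 when single mice were left out. For dependent against naive Input, 2 passed, and 4 with DESeq2, 0 with limma voom, 1 without a count filter, 7 without a batch term, 0 in batches J and K, 1 without I02 and J05 and 1 without K15, with 1 to 3 when single mice were left out. Non-dependent against naive gave 0 throughout (0 to 0). With the mouse pairing as a block, 1 member was called for IP minus Input against naive mice and 0 without the replicate block. Leaving out 8 of the 16 dependent mice in turn, the number run, gave 0 to 2 there and 0 to 1 against non-dependent mice. The cause was not tested, beyond the smaller number of mice in some fits. Of 200 member values in IP against non-dependent mice, 0 changed direction and 35 no longer passed, and against naive mice 0 changed direction, 17 no longer passed and 11 newly passed. Most of these values came from leave-one-out fits, which share nearly all their libraries. Against non-dependent mice those fits gave 116 unchanged and 12 lost calls, and against naive mice 118 unchanged, 6 lost and 4 new ones. The fits without I02 and J05 and without K15 were chosen after seeing the data. Low counts of Iigp1 and Ifi47 in controls limit the precision of their fold changes. For the alternative fits of this section the share of all genes called is not given. A changed count of members therefore cannot be told apart from a change over all genes.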
